A study of Mus musculus with 36 samples.

Results

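The natriuretic peptide system was followed through mouse heart development: the peptide genes *Nppa*, *Nppb* and *Nppc*, the receptor genes *Npr1*, *Npr2* and *Npr3*, and *Corin*, which encodes a protease of the pathway. These 7 genes were picked by symbol from the array annotation, and every probe set under those symbols was taken. The array held 9 such probe sets among 45101 in all, and 7 of its 20701 gene IDs. *Npr3* had 3 probe sets and each of the other genes had 1.

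Whole hearts of OF1 mice, an outbred stock, were collected daily from E10.5 to E19.5 and from young and old adults. No mouse carried a transgene or a drug treatment according to the labels. Each of the 12 stages had 3 arrays, for 36 in total. At E10.5 and E11.5 all arrays were made from mixed-sex material, and from E12.5 on a stage had a female, a male and a mixed-sex array. Young adults were 10 weeks old. The old adults were 10 months of age in the paper's methods but 14 months in the series record. The extraction note in the labels names liver, whereas the tissue label and the methods name heart, and none of the 5 liver markers examined (*Alb*, *Afp*, *Apoa1*, *Apob*, *Ttr*) exceeded a log2 intensity of 4.54 on any array by its brightest probe set.

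ANP, encoded by *Nppa*, and BNP, encoded by *Nppb*, are hormones released by heart muscle cells, and CNP, encoded by *Nppc*, acts mostly within tissues and vessel walls. ANP and BNP bind the guanylyl cyclase receptor NPR-A (*Npr1*), CNP binds NPR-B (*Npr2*), and both receptors make cyclic GMP, which relaxes vessels, promotes salt excretion and restrains muscle growth. NPR-C (*Npr3*) removes the peptides, and corin, a protease on the cardiomyocyte surface, cuts pro-ANP into ANP. In the embryo *Nppa* marks the working myocardium of the forming chambers. After birth its level falls in the ventricles and stays high in the atria, and both peptides rise again in a loaded heart.

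*Nppb* and *Nppa* are neighbours on chromosome 4, where RefSeq annotation of GRCm38.p6 places *Nppb* at chr4:147985786-147987205 and *Nppa* at chr4:148000722-148002074, with 13.5 kb between them. *Npr2* lies on the same chromosome at chr4:43629015-43651437. The remaining genes lie apart, *Nppc* at chr1:86666293-86670573, *Npr1* at chr3:90450591-90465928, *Corin* at chr5:72299948-72504540 and *Npr3* at chr15:11839896-11907837. The start regions of the neighbouring peptide genes are shown because the 2 genes are set side by side in the results. The start used in the promoter table lies inside the gene span of *Nppb* given above. Each window runs from 250 bases before to 50 bases after the annotated start, on the plus strand of GRCm38.p6 (*Nppb* chr4:147985650-147985949, *Nppa* chr4:148000472-148000771). Capitals mark matches, on either strand, to letters read by cardiac factors: GATAA for the GATA factors, AAGTG for the NK2 factors, TCACACCT for T-box factors, CATTCC for the TEAD factors (the M-CAT element), TATAAA for the TATA box, and the CArG box of SRF.
Nppb: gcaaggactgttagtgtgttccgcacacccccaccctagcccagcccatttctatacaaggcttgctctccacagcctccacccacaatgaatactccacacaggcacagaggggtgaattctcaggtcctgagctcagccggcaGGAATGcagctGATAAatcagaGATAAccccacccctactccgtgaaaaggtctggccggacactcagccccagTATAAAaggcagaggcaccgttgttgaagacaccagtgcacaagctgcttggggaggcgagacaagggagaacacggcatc
Nppa: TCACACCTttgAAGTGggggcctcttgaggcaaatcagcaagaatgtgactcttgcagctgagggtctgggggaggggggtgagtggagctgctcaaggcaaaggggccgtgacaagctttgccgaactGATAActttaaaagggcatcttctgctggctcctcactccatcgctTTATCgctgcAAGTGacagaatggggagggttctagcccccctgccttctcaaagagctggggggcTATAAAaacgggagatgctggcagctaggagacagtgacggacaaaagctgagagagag
Both windows held 2 GATAA matches, at 94 and 83 bases before the start in *Nppb* and at 121 and 75 bases before it in *Nppa*. Of 32851 promoter windows of this length, 25.4% held at least 1 GATAA and 5.27% held 2 or more. *Nppa* also had 2 AAGTG matches, which 13.7% of windows had, and 1 TCACACCT, found in 1.28% of windows. *Nppb* had the M-CAT letters at 105 bases before its start, and 14.7% of windows held them. A TATAAA stood 31 bases before the start of *Nppb* and 9 bases before that of *Nppa*, against 13.6% of windows with one, and it was also found in the window of *Nppc*. No CArG match (1.63% of windows) was present in either, no motif overlapped another, and the windows of *Npr1*, *Npr2*, *Npr3* and *Corin* held none of the motifs. A match is a description of letters and was not tested for binding.

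The values are log2 intensities, so a difference of 1 is a doubling, and levels of different probe sets are not comparable with each other. A change was called at an adjusted p under 0.05 in a linear model of all 36 arrays (limma, Benjamini-Hochberg over all 45101 probe sets). With 3 arrays a stage, precision was limited by the number of arrays. In whole-heart RNA, fewer cells of a type and less RNA per cell cannot be told apart.

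Some arrays stood apart before any comparison was made. Over all probe sets, 14 arrays lay nearer to an array of a neighbouring stage than to one of their own. In particular, the mixed-sex E13.5 array was nearest to the E14.5 female array, and the mixed-sex E14.5 array was nearest to the E13.5 male array, so the main results at E13.5 and E14.5 are given with and without them. The old adult female array was high in atrial muscle markers, with the atrial light chain *Myl7* at 12.73 against 9.46 and 9.53 in the male and mixed-sex old arrays, and with *Sln* (sarcolipin) at 11.43 against 8.02 and 7.30. The sample titles switch to another prefix at the E16.5 female array, and what the prefix marks is not given in the sources used here. The 18 probe sets for bacterial transcripts added before hybridization had mean levels of 9.90 (E10.5), 11.16 (E19.5), 12.17 (young adult) and 11.37 (old adult), so this technical level moved with stage. Young adult arrays ran from 12.03 to 12.43, and the highest array of any other stage was at 12.01. E10.5 (9.68 to 10.35) and E19.5 (10.97 to 11.39) shared no levels either. Adjusting such stages for this level extends a within-stage relation beyond levels they share.

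*Nppa* was strongly expressed at every stage and followed a shallow U through life. At E10.5 its 3 arrays read 11.88, 12.20 and 11.47. At E14.5 they read 9.91 (female), 10.01 (male) and 11.65 (mixed), and at E19.5 they read 11.94, 11.29 and 10.48. In the young adult the male, mixed and female arrays gave 12.33, 12.05 and 11.68, and in the old adult 13.41, 11.98 and 12.97. The embryonic stages from E10.5 to E12.5 thus lay close to the young adult, the middle fetal stages lay lower, and the highest 2 values of the whole series came from old hearts. The lowest stage mean was 10.34 ± 0.61 (SD, n = 3) at E17.5 and the highest was 12.79 ± 0.73 (SD, n = 3) in old adults, a 5.45-fold span.

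*Nppa* passed the test over all 12 stages (adjusted p = 0.00145) and none of the 5 pairwise comparisons. From E10.5 to E14.5 it differed by -1.32 ± 0.51 (SE), with an adjusted p of 0.0521 and overlapping arrays. Without the mixed-sex E13.5 and E14.5 arrays, an alternative chosen after seeing the data, the same difference was -1.89 with an adjusted p of 0.00121. At E13.5 the female and male arrays read 11.71 and 11.97 and the mixed array 9.51. From E19.5 to young adult the difference was 0.78 ± 0.51 (adjusted p = 0.267), and from young to old adult 0.77 ± 0.51 (adjusted p = 0.381). Against young adults *Nppa* was lower at each of E14.5 to E17.5 (adjusted p from 0.00954 to 0.0336), and with all arrays in the widest gap was at E17.5, -1.68 ± 0.51 (adjusted p = 0.00954), where all 3 fetal arrays (10.74, 10.65 and 9.64) were below all 3 adult ones. Without the mixed-sex E13.5 and E14.5 arrays the gap at E14.5 was wider, -2.06 (adjusted p = 0.000265). All 11 neighbours in the order of its stage means overlapped. With the bacterial control level as a covariate, the difference between E19.5 and E10.5 turned from -0.61 (adjusted p = 0.322) to 1.41 (adjusted p = 0.0272), and that between young adult and E19.5 was called at 2.41 (adjusted p = 2.76e-05). In neither comparison did the stages share control levels.

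*Nppb* dipped and recovered, with its lowest stage mean at E14.5. For *Nppa* the female and male E14.5 arrays (9.91 and 10.01) also lay below its lowest stage mean (10.34 at E17.5), so a difference in timing between the genes rests on the mixed-sex E14.5 array. Its arrays read 10.67, 10.84 and 10.35 at E10.5, then 9.10, 9.27 and 10.01 at E14.5, and 10.89, 10.37 and 10.58 at E19.5. The E14.5 arrays were all below those of both other stages. *Nppb* fell by 1.16 ± 0.35 (SE) from E10.5 to E14.5 (2.24-fold, adjusted p = 0.0141) and rose by 1.16 ± 0.35 from E14.5 to E19.5 (2.23-fold, adjusted p = 0.0253). The first call was lost when E10.5 replicate 2 or E14.5 replicate 1 or 2 was left out (adjusted p = 0.0708, 0.0854 and 0.0641). The second was lost without E14.5 replicate 1 or 2 or E19.5 replicate 1 or 3 (adjusted p up to 0.121). Without the mixed-sex E13.5 and E14.5 arrays both were larger, -1.44 (adjusted p = 0.00492) and 1.43 (adjusted p = 0.0130). E10.5 and E19.5 did not differ beyond the spread (-0.0034 ± 0.35, adjusted p = 0.994).

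In adult hearts *Nppb* varied more between arrays than at any fetal stage. The young adult arrays read 10.68 (male), 10.07 (mixed) and 9.40 (female), and the old ones 12.42 (male), 10.07 (mixed) and 10.76 (female). The old male array was the highest of all 36, and the mixed arrays of both ages were alike. The old adult mean was 1.03 ± 0.35 above the young one (adjusted p = 0.0698). The SE of this difference came from a spread pooled over all 12 stages, whereas the adult arrays had an SD of 0.64 (young) and 1.21 (old). Leaving out the old mixed-sex array gave 1.54 (adjusted p = 0.00910) and leaving out the young male array 1.35 (adjusted p = 0.0384). Without the old male array the difference was 0.37 (adjusted p = 0.544), so its size rested largely on that array.

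*Nppc* was low on every array, between 2.23 and 3.68, and never reached the mean of 5 that the study used as its limit for expression. At E10.5 it read 2.47, 2.23 and 2.34 and at E19.5 3.01, 2.83 and 3.09. The E19.5 arrays were all higher, and *Nppc* rose by 0.63 ± 0.20 (SE, adjusted p = 0.00970), a change between values near the bottom of the array's range. The call was lost after quantile renormalization (0.43, adjusted p = 0.0567). Over the 12 stages *Nppc* did not pass (adjusted p = 0.0886), the only one of the 7 genes that did not.

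**Figure D1:**
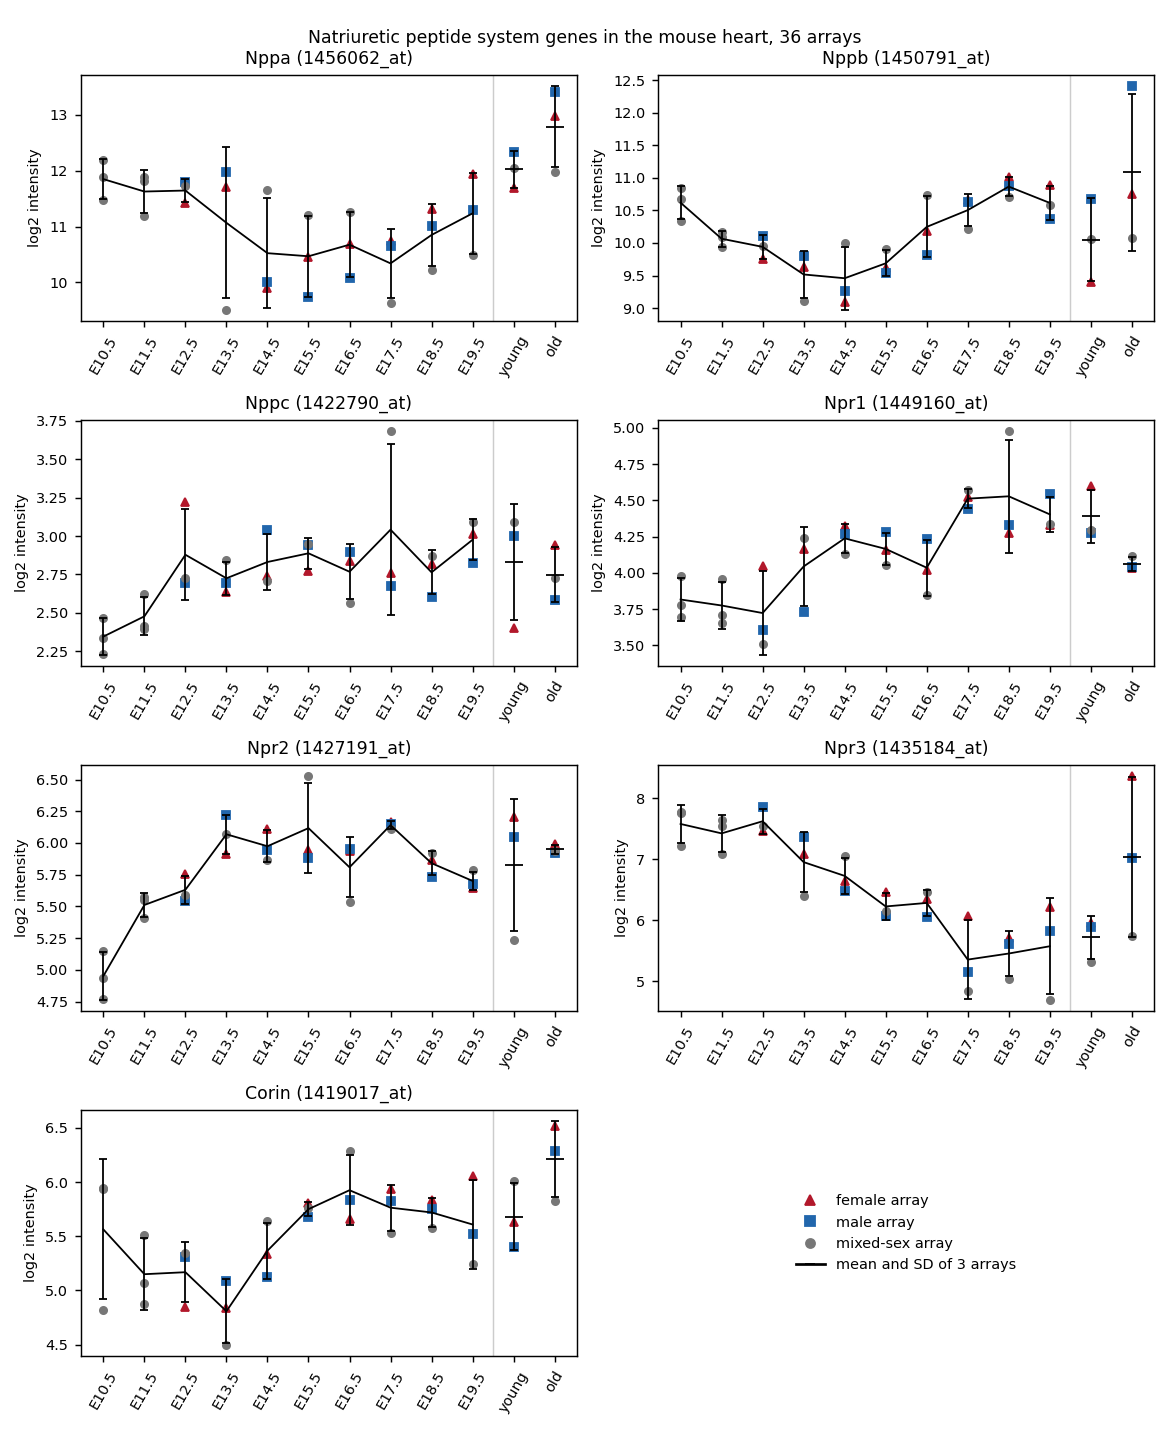
Log2 intensity (y axis, a separate scale for each gene) of the first probe set of each gene at 12 stages (x axis), with 1 point per array and the mean and SD of 3 arrays in black. *Nppa* and *Nppb* dip in the middle fetal stages, *Npr3* is at 7.58 on E10.5 and 5.58 on E19.5, *Npr2* climbs from 4.95 at E10.5, and old adult arrays of *Nppb* and *Npr3* are widely spread.

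Between E10.5 and E19.5 both cyclase receptors rose and the clearance receptor fell. *Npr2*, the CNP receptor, read 4.93, 4.77 and 5.15 at E10.5 and 6.11, 5.95 and 5.86 at E14.5. All E14.5 arrays were higher, and the rise of 1.02 ± 0.18 (SE) was 2.03-fold (adjusted p = 6.16e-05; 1.08, adjusted p = 0.000170, without the mixed-sex E13.5 and E14.5 arrays). At E19.5 the arrays read 5.64, 5.68 and 5.78, still 0.75 ± 0.18 above E10.5 (adjusted p = 0.000957). In the order of stage means, E10.5 (lowest) did not overlap E11.5, and old adult did not overlap E18.5, while the other 9 neighbours overlapped. From E19.5 to young adult (0.13) and from young to old adult (0.12) it did not differ beyond the spread (adjusted p = 0.643 and 0.723).

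*Npr1*, the ANP and BNP receptor, was dim, with arrays between 3.51 and 4.98 and no stage mean above 5. It read 3.98, 3.69 and 3.78 at E10.5 and 4.33, 4.55 and 4.33 at E19.5, with no overlap. The rise was 0.59 ± 0.16 (SE, adjusted p = 0.00465). Its highest stages were E18.5 (4.53 ± 0.39) and E17.5 (4.51 ± 0.07), and its lowest was E12.5 (3.72 ± 0.29, SD, n = 3). Old adult arrays (4.04, 4.12 and 4.03) were all below young adult arrays (4.27, 4.30 and 4.60), a difference of -0.33 ± 0.16 that did not pass (adjusted p = 0.229).

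*Npr3* changed more than any other gene of the 7 between E10.5 and E19.5. Its brightest probe set read 7.76, 7.77 and 7.21 at E10.5 and 6.21, 5.82 and 4.69 at E19.5. All late arrays were below all early ones, and *Npr3* fell by 2.01 ± 0.41 (SE, adjusted p = 0.000186), a 4.02-fold drop. The other probe sets fell too, the middle one by 1.16 ± 0.28 (adjusted p = 0.00150) and the dimmest by 1.33 ± 0.23 (adjusted p = 1.70e-05), the last from values under 5. The high stages were E12.5 (7.63 ± 0.21), E10.5 (7.58 ± 0.32) and E11.5 (7.43 ± 0.30), and the low ones were E17.5, E18.5 and E19.5, at 5.36 to 5.58 (n = 3 each). The step between E14.5 and E16.5 in the order of stages and that between E15.5 and young adult did not overlap. With the bacterial control level as a covariate, which itself moved with stage, the E19.5 difference was -0.81 and no longer called (adjusted p = 0.266). That covariate also ended the E19.5 calls of *Npr2* (0.54, adjusted p = 0.116), *Npr1* (0.23) and *Nppc* (0.12), and the fall of *Nppb* to E14.5 (-0.42, adjusted p = 0.624).

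After birth the 3 probe sets of *Npr3* differed in whether they were called. From E19.5 to young adult, the brightest differed by 0.15 ± 0.41 (adjusted p = 0.832) and the middle one rose by 0.86 ± 0.28 (adjusted p = 0.0216). The dimmest differed by 0.43 ± 0.23 (adjusted p = 0.155). In old adults the brightest read 7.02 (male), 5.74 (mixed) and 8.37 (female), against 5.89, 5.32 and 5.96 in young adults. The groups overlapped, and the old mean was 1.32 ± 0.41 higher (adjusted p = 0.0443). The old female array, high in atrial markers, was the highest of all 36 for this probe set. Without it the difference was 0.66 (adjusted p = 0.300), and the call was also lost when any of 12 other single arrays was left out, with adjusted p from 0.0501 to 0.160. The 2 other probe sets differed by 0.43 and 0.31 (adjusted p = 0.375 and 0.430).

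*Corin* was lowest in the middle of the embryonic series and highest in old hearts. It read 5.93, 5.94 and 4.82 at E10.5, 4.84, 5.09 and 4.50 at E13.5, and 5.83, 6.28 and 5.66 at E16.5. Every E16.5 array was above every E13.5 array. Old adult arrays gave 6.28, 5.83 and 6.52 and young adult arrays 5.40, 6.01 and 5.63, which overlapped (0.53 ± 0.25, SE, adjusted p = 0.204). *Corin* passed over the 12 stages (adjusted p = 0.000918) and in none of the 5 comparisons. With the bacterial control level as a covariate it was called at E19.5 against E10.5 (0.94, adjusted p = 0.00779) and in young adults against E19.5 (0.79, adjusted p = 0.00883). Its largest gap to young adults was at E13.5, with a difference of -0.87 ± 0.25 (adjusted p = 0.00508), or -0.72 (adjusted p = 0.0358) without the mixed-sex E13.5 and E14.5 arrays.

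The calls among the 7 genes are given beside the share of all probe sets called in the same direction. With 7 genes, these counts are not read as particular to them. Between E10.5 and E19.5, 3 of them rose (*Nppc*, *Npr1*, *Npr2*) where 23.7% of all probe sets did, and 1 fell (*Npr3*) where 21.8% did. From E10.5 to E14.5, 1 rose (*Npr2*, background 11.1%) and 1 fell (*Nppb*, background 15.2%). From E14.5 to E19.5, 1 rose (*Nppb*, background 5.1%) and none fell (background 8.46%). From E19.5 to young adult none rose or fell in limma by the first probe set, and none had an unadjusted p under 0.05, where 13.6% of probe sets rose and 15.5% fell. From young to old adult 1 rose (*Npr3*, background 3.83%) and none fell (background 3.13%), with 3 of the 7 at an unadjusted p under 0.05. In the test over 12 stages 6 of 7 passed, where 68% of all probe sets did.

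**Figure D2:**
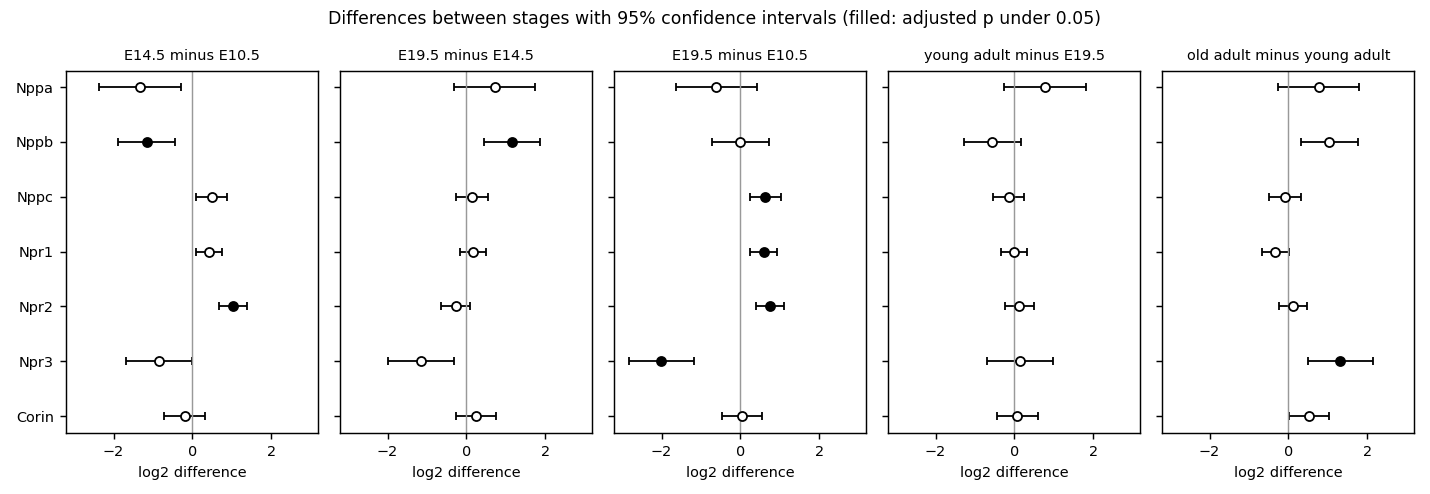
Difference in mean log2 intensity (x axis) of each gene (y axis, first probe set) in 5 stage comparisons, with 95% confidence intervals from the model of 36 arrays. Filled points passed an adjusted p under 0.05: 2 genes from E10.5 to E14.5, 1 from E14.5 to E19.5, 4 from E10.5 to E19.5, none from E19.5 to young adult and 1 from young to old adult.

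The study used strict limits against young adults: an adjusted p under 1e-05, a log2 difference beyond 2 and a stage mean above 5. None of the 7 genes met them at any embryonic stage. Across all probe sets the share that did fell from 6.53% at E10.5 through 5.39%, 5.12%, 4.44%, 4.17%, 4.03%, 3.46%, 2.72% and 2.46% on the following days to 1.45% at E19.5, and it was 0.00665% in old adults. With all arrays in, no difference of a first probe set from young adults exceeded 2 either, the widest being 1.91 for *Npr3* at E12.5 and -1.68 for *Nppa* at E17.5. Without the mixed-sex E13.5 and E14.5 arrays *Nppa* differed by -2.06 at E14.5 (adjusted p = 0.000265), short of the strict limit on p. At an adjusted p under 0.05 by limma alone, *Npr3* by its brightest probe set was higher than in young adults at E10.5 by 1.86 (adjusted p = 0.000251). At E10.5 *Npr2* also differed from young adults, by -0.88 (adjusted p = 9.31e-05). So did *Npr1*, by -0.58 (adjusted p = 0.00351), and *Nppc*, by -0.49 (adjusted p = 0.0316), both dim at every stage. The middle *Npr3* probe set did not pass, at 0.30 on E10.5 (adjusted p = 0.362) and 0.39 on E12.5 (adjusted p = 0.239). The dimmest, under 5 at every stage, differed by 0.90 on E10.5 (adjusted p = 0.00105) and 0.28 on E12.5 (adjusted p = 0.283). With the bacterial control level as a covariate, *Nppa* met the strict limits at 6 stages, E13.5 to E18.5, with differences from -2.73 to -3.50. Young adult control levels (12.03 to 12.43) lay above every array of the other stages. These differences thus extend a within-stage relation beyond shared levels. Among the 6 adult arrays that relation was r = -0.349 for *Nppa*.

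Within a stage, arrays with more *Nppa* also had more ventricular marker signal and less bacterial control signal. After each array was set against the mean of its stage, *Nppa* and the mean of 5 ventricular genes (*Myl2*, *Myl3*, *Irx4*, *Hey2*, *Mpped2*) correlated across 36 arrays with Pearson r = 0.734 and Spearman rho = 0.741 (permutation within stages, adjusted p = 0.00084 over 42 relations). Without the 2 arrays farthest in the ventricular mean r was 0.677. In the 30 embryonic arrays r was 0.929, and in the 6 adult arrays it was -0.0427. With the bacterial control level r was -0.765 and rho -0.765 (adjusted p = 0.000105), and -0.743 without the 2 farthest arrays. These array values moved together, and their part in the stage differences of *Nppa* was not tested.

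The mixed-sex arrays differed from the others in both directions. *Nppa*, *Npr3* and *Corin* were each lowest in the mixed-sex array at all 3 of E17.5, E18.5 and E19.5, and over the 10 stages from E12.5 on this was so at 5, 6 and 5 stages. At E14.5, E15.5 and E16.5 the mixed array was instead the highest for *Nppa* (11.65, 11.20 and 11.25). In the mixed arrays of E17.5 to E19.5 *Nppa* read 9.64, 10.23 and 10.48 and the ventricular marker mean was 9.20, 9.28 and 9.14, against 9.44 to 9.71 in the female and male arrays. *Corin* correlated with the ventricular mean at r = 0.615 and rho = 0.692 (adjusted p = 0.000882), with r = 0.583 without the 2 farthest arrays, and more strongly with the bacterial control level (r = -0.713, rho = -0.744, adjusted p = 0.000105; r = -0.718 without the 2 farthest arrays).

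The peptide genes also moved together from array to array. Within stages *Nppa* and *Nppb* correlated at r = 0.715 and rho = 0.845 (adjusted p = 0.000105), at 0.763 without the 2 farthest arrays, and at 0.868 in embryonic arrays. *Nppa* and *Npr1*, its receptor, ran opposite to each other (r = -0.600, rho = -0.628, adjusted p = 0.000336; r = -0.616 without the 2 farthest arrays). The bacterial control level, to which *Nppa* ran opposite, also ran opposite to *Nppb* (r = -0.496, rho = -0.673, adjusted p = 0.00332). With *Npr1*, dim at every stage, it had r = 0.481 (adjusted p = 0.0463) and rho = 0.437 (adjusted p = 0.0503). The part of the control level in the relations between these genes was not tested. *Npr3* followed the mean of 7 atrial markers (r = 0.703, rho = 0.489, adjusted p = 0.0222; r = 0.707 without the 2 farthest arrays), with r = 0.576 in the 30 embryonic and 0.833 in the 6 adult arrays. It also ran opposite to the bacterial control level (r = -0.573, rho = -0.675, adjusted p = 0.00134; r = -0.532 without the 2 farthest arrays). In the embryonic arrays alone its r was 0.850 with the ventricular mean and -0.787 with the control level, both farther from 0 than with the atrial mean. For *Nppa* and the atrial mean the 2 measures differed: r = 0.254 did not pass (adjusted p = 0.375) and rho = 0.485 did (adjusted p = 0.0361), with r = 0.521 in the embryonic arrays. The 2 farthest arrays in the atrial mean were adult, and without them r was 0.536.

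**Figure D3:**
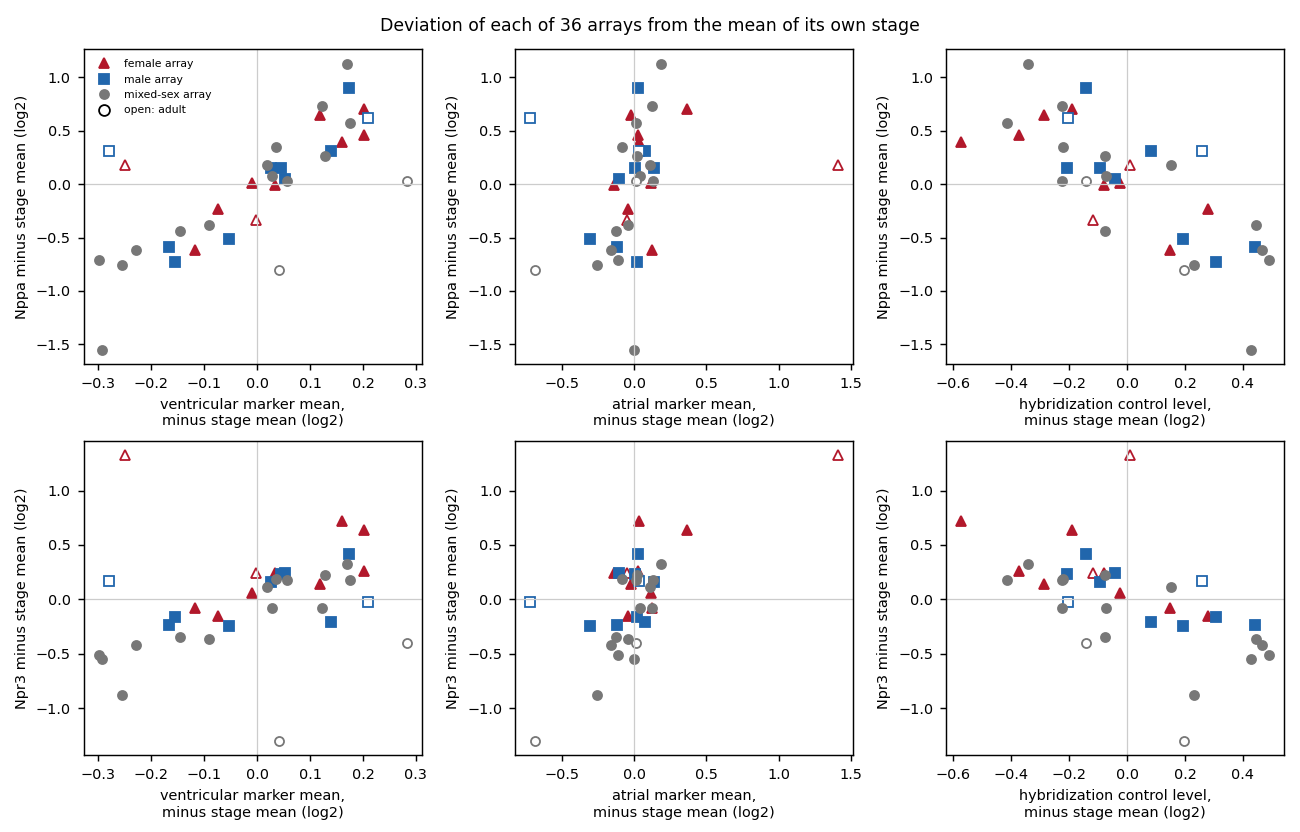
Deviation of *Nppa* (top row) and *Npr3* (bottom row) from the stage mean against the deviation of the ventricular marker mean, the atrial marker mean and the bacterial hybridization control level, all in log2 units, with 1 point per array. Filled embryonic points form a rising band of *Nppa* with the ventricular mean (r = 0.929) that the open adult points do not follow, and *Nppa* falls as the control level rises (r = -0.765 over all 36).

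In old hearts the members separated by array. The old male array had the highest *Nppa* (13.41) and *Nppb* (12.42), together with the lowest atrial mean of the 3 (7.19) and the highest *Ankrd1*, a stress-responsive muscle gene (12.97), and *Myh7*, the slow myosin heavy chain (13.40). The old female array had the highest *Npr3* (8.37) and *Corin* (6.52) and the highest atrial mean (9.32). *Nppa* in that array (12.97) lay below the male array (13.41) and above the mixed array (11.98), whose atrial mean was 7.22. The part of atrial tissue in these values was not tested.

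Across sexes none of the 7 genes was called over 9 male and female pairs from E13.5 to old adult (limma with stage as a block), where 0.0488% of all probe sets were. Only *Npr3* had an unadjusted p under 0.05, at -0.38 ± 0.13 (SE, adjusted p = 0.555), with the male higher in 1 of 9 pairs. Its other probe sets did not show this, at 0.04 (male higher in 5 of 9) and -0.07 (male higher in 6 of 9). *Nppb* behaved differently in adult and embryonic pairs. Its male value minus female value was 1.28 in young and 1.66 in old adults, and in the 7 embryonic pairs it lay between -0.52 and 0.17. The adult difference exceeded the embryonic one by 1.58 (adjusted p = 0.00237), and 0.548% of all probe sets passed this test of the difference. The test pooled the spread over all 9 pairs, 7 of them embryonic, so its p does not measure the spread among adult arrays alone. *Nppb* was the only one of the 7 that did.

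Other genes of the stress programme showed the same sexes apart in adults. *Acta1*, skeletal alpha-actin, was higher in the male by 1.84 in young and 2.34 in old adults (adjusted p of the adult minus embryonic difference = 0.000133). *Myh7* was higher in males by 1.06 and 1.71 (adjusted p = 0.00230) and *Ankrd1* by 0.89 and 1.25 (adjusted p = 0.00812). *Xirp1*, *Atp2a2* and *Ctgf* did not pass. *Nppa* was higher in the male by 0.65 in young and 0.44 in old adults, and its difference did not pass (0.83, adjusted p = 0.138). Each sex had 1 array per adult age, so a sex and a single sample cannot be told apart within an age. The p-values above rest on the same pooled spread, mostly from embryonic pairs.

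**Figure D4:**
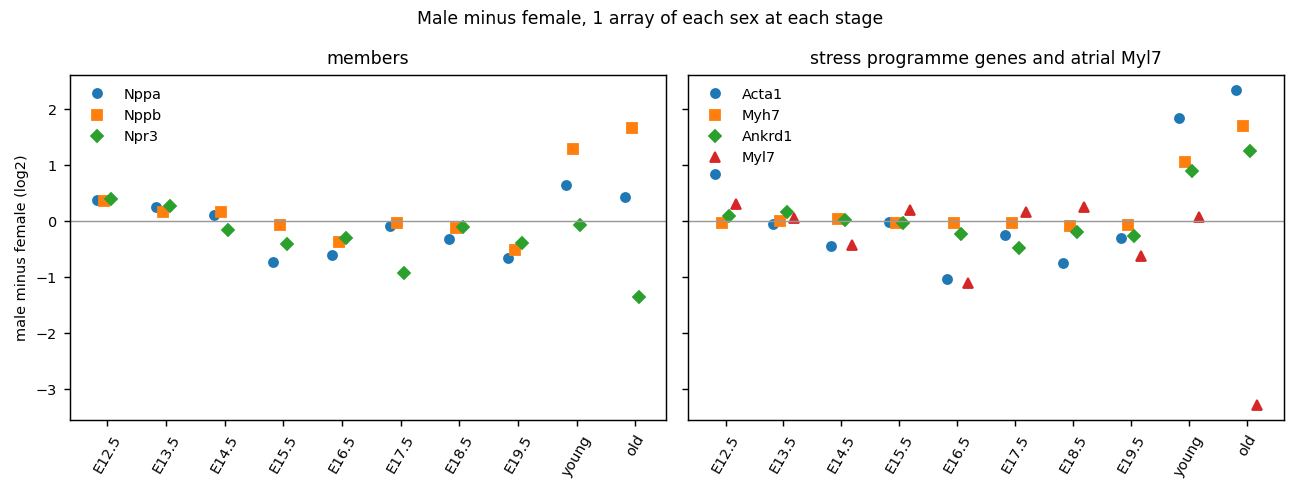
Male minus female log2 intensity (y axis) at each stage from E12.5 (x axis), from 1 array of each sex, for *Nppa*, *Nppb* and *Npr3* (left) and for *Acta1*, *Myh7*, *Ankrd1* and the atrial gene *Myl7* (right). *Nppb* lies between -0.52 (E19.5) and 0.37 (E12.5) in embryos and at 1.28 and 1.66 in young and old adults. *Acta1*, *Myh7* and *Ankrd1* are also above 0 in adults, and *Myl7* is -3.27 in old adults.

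Of 11 genes for cyclic GMP synthesis and breakdown, 4 were higher and 3 lower at E19.5 than at E10.5, with a median difference of 0.23 against 0.15 over all probe sets. Of all probe sets 23.7% rose and 21.8% fell in that comparison, and 13.6% rose and 15.5% fell from E19.5 to young adult. The phosphodiesterases *Pde1c* and *Pde2a* rose most, by 3.02 (adjusted p = 1.92e-09) and 2.52 (adjusted p = 8.50e-15), and *Gucy1a1* and *Pde3b* fell most, by 0.94 (adjusted p = 0.0429) and 0.70 (adjusted p = 0.000180). From E19.5 to young adult 1 rose and 2 fell, *Gucy1a2*, a subunit of the nitric oxide receptor cyclase, by 0.66 upward and *Pde1c* by 2.24 downward. No stage mean of *Gucy1a2* exceeded 3.99, so the size of its change is uncertain. Of 8 effector genes 1 rose and 2 fell from E10.5 to E19.5, where 23.7% of all probe sets rose and 21.8% fell. *Rgs2*, a brake on G protein signalling activated by the cyclic GMP kinase, rose by 1.72 (adjusted p = 5.74e-07), and *Vasp*, a substrate of that kinase, fell by 1.58 (adjusted p = 4.86e-05). *Prkg1*, the kinase itself, fell by 0.53 (adjusted p = 0.000538).

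Among 5 measured genes for peptide processing and breakdown, 2 rose and 2 fell from E10.5 to E19.5, and 3 rose and 2 fell from E19.5 to young adult. Of all probe sets 23.7% rose and 21.8% fell in the first comparison, and 13.6% rose and 15.5% fell in the second. *Furin*, which cuts pro-BNP and pro-CNP, fell by 1.06 after E19.5 (adjusted p = 8.88e-08), and *Pcsk6*, a protease that activates corin, rose by 1.26 (adjusted p = 5.71e-06). *Mme*, neprilysin, which degrades the peptides, passed at 0.54 (adjusted p = 0.0161), but its highest stage mean was 2.92, near the bottom of the range, so the size is uncertain. From young to old adult none of the 5 passed.

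The transcription factors known to act on *Nppa* and *Nppb* mostly fell after E19.5, where neither peptide gene passed. Of 17 such genes, 16 fell and none rose from E19.5 to young adult, with a median of -1.30 against 0.04 over all probe sets. Between E10.5 and E19.5, 10 fell and 2 rose (median -0.75). Of all probe sets 15.5% fell and 13.6% rose in the first comparison, and 21.8% fell and 23.7% rose in the second. *Hey2*, a transcriptional repressor, and *Myocd*, the SRF partner myocardin, fell most after E19.5, with differences of -2.74 (adjusted p = 1.27e-09) and -2.67 (adjusted p = 1.18e-14). Over the embryonic span E10.5 to E19.5 *Hey2* fell by 1.55, and *Tbx3* and *Nfatc4* rose by 0.87 and 0.55. From young to old adult *Srf* rose by 0.92 (adjusted p = 0.0287) and the other 16 did not pass. Over the same step 2 of 6 stress programme genes rose, where 3.83% of all probe sets did. They were *Myh7*, by 1.04 (adjusted p = 0.00802), and *Ankrd1*, by 0.75 (adjusted p = 0.0340). In both the old male array was highest, and old and young arrays overlapped. The old male, mixed and female arrays read 13.40, 12.57 and 11.70 for *Myh7*. For *Ankrd1* they read 12.97, 11.89 and 11.72. These p-values used a spread pooled over all 12 stages. The median of the stress programme list was 0.70 against -0.02 over all probe sets.

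**Figure D5:**
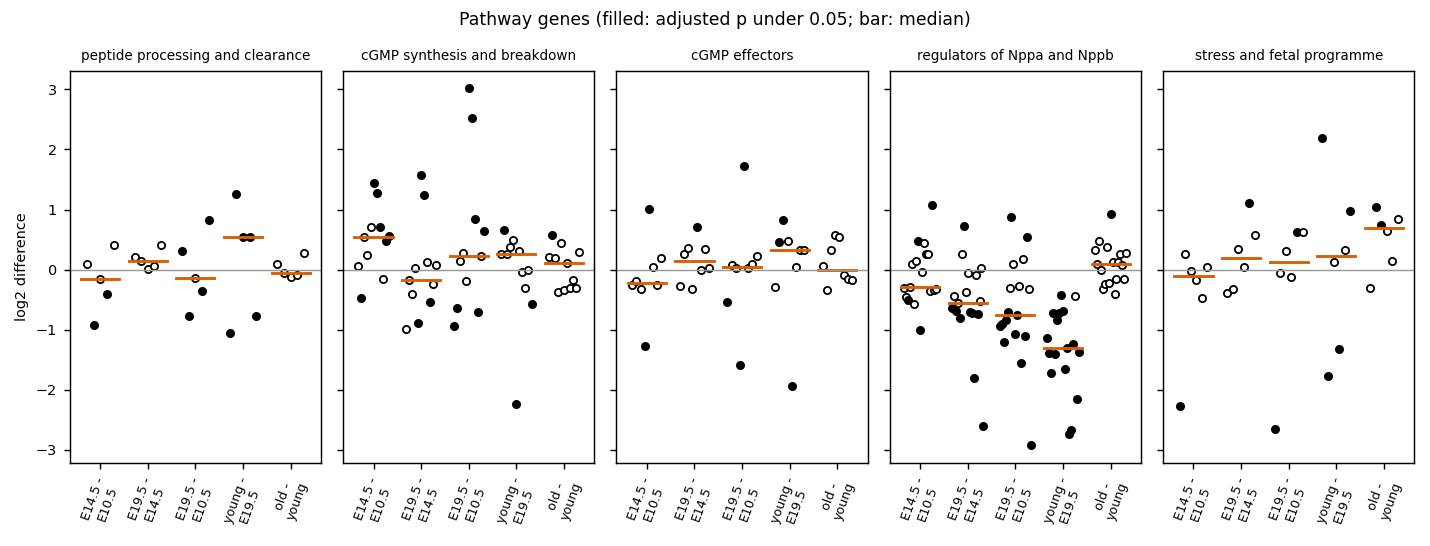
Log2 differences (y axis) of the genes of 5 pathway lists in 5 stage comparisons (x axis), with 1 point per gene, filled where the adjusted p was under 0.05, and a bar at the list median. The regulators of *Nppa* and *Nppb* have medians below 0 in every comparison up to young adult, with a median of -1.30 from E19.5 to young adult, and the other lists spread to both sides.

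Markers of chambers and of other cell types were read beside the members. Of all probe sets 23.7% rose and 21.8% fell from E10.5 to E19.5. The shares were 13.6% and 15.5% from E19.5 to young adult, and 3.83% and 3.13% from young to old adult. Of 7 atrial markers, 1 rose and 3 fell from E10.5 to E19.5. *Sln* rose by 3.27 (adjusted p = 4.58e-05), *Myl7* differed by -2.67 and *Myl4* by -2.33, and the list mean ranged from 7.09 at E17.5 to 8.07 in young adults. Of 5 ventricular markers 2 fell over the same span, and the stage means of that list were 10.16 (E10.5), 9.39 (E19.5) and 8.09 (young adult). Between E10.5 and E19.5 4 of 5 fibroblast markers rose and 1 fell (median 2.58), and *Dcn* (3.47) and *Col1a1* (3.17) rose most. Of 6 endothelial markers 2 rose and 2 fell over that span, and from young to old adult 2 rose, *Pecam1* by 1.19 (adjusted p = 0.0140) and *Kdr* by 0.81 (adjusted p = 0.00720). Of 3 smooth muscle markers 2 fell from young to old adult, *Myh11* (adjusted p = 0.0162) and *Acta2* (-0.67, adjusted p = 0.0142). No liver marker and 1 of 2 lung markers (*Sftpb*, up to 5.80) exceeded 5 on any array. The same held for 1 of 5 skeletal muscle markers (*Mylpf*), 1 of 3 erythroid markers and 2 of 4 lymphocyte markers. Of 4 fat markers, 2 rose from E19.5 to young adult. The part of these cell types in the member values was not tested.

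By likeness of profile over 12 stage means, the genes nearest to *Nppa* were *Sdc4* (r = 0.983), *Tmod3*, *Sdf4*, *Ubr4* and *Kat2b* (r = 0.973), among 13171 candidate probe sets. Nearest to *Npr3* were *Traf3* (r = 0.991), *Dennd4c*, *Serpine2*, *Chmp1b* and *Sec63* (r = 0.974). For *Nppb* they were *Noct* (r = 0.875), *Ckb*, *Ehd4*, *Slc6a6* and *Ctnna1*, and for *Corin* they were *Nabp1* (r = 0.935), *Colec11*, *Trak1* and *Mfn2*. *Npr2* lay nearest to *Pmepa1* (r = 0.946), *Pcdh9*, *Zfp612*, *Map3k10* and *Zfyve27*, and *Npr1* to *Nav2* (r = 0.961), *Coq10a*, *Kidins220*, *Ghrhr* and *Miga2*. *Nppc* lay nearest to *Odf3b* (r = 0.896), *Sts*, *Msln*, *Fxyd1* and *Col6a3*. These correlations are descriptions of 12 points each, chosen as the highest of many.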

How the data were processed

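Hearts were profiled on the Affymetrix GeneChip mouse genome array, a 1-colour array. The deposited values are log2 intensities made by the authors with robust multi-array average (background correction, quantile normalization, probe summary). The submitters' processing notes name Expression Console and Partek 6.6. The values were used as deposited, with no offset or scaling. The normalization can reduce a shift shared by most genes. The deposited arrays did not share 1 distribution: medians ran from 4.002 to 4.196 and upper quartiles from 5.60 to 6.11. Gene names came from the array's gene IDs matched to RefSeq (GRCm38.p6, 18342 IDs). Promoter sequences are from RefSeq, and all 7 genes matched. *Ostn*, *Myh6*, *Plin1*, *Scgb1a1* and *Hbb-b1* were listed, but no probe set matched them in the annotation, so they were not measured.

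Groups follow the stage labels. Whether the 3 arrays of a stage came from separate litters is not given in the sources used here, so p-values measure the spread between these arrays. limma 3.58.1 in R 4.3.3 fitted 12 stage means to 36 arrays and adjusted p over all probe sets. Sexes were compared over 9 stage pairs, without E12.5 as in the study. Deviations from stage means were permuted within stages (100000 resamples, smallest p 1e-05, two-sided) in Python 3.11.15, with Benjamini-Hochberg over 42 relations. The fits were tested on simulated data.

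The members and lists were chosen with earlier results of these data known. Named genes were the members with all probe sets (first the brightest), list genes past the threshold with the 2 largest changes in each direction, and the 5 most alike genes by Pearson r over stage means that exceed 5 and span at least 1. Some genes that the rule names are not reported here. Alternatives changed scaling, filter, prior, array weights, covariate, samples and replicates.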

Additional observations from a re-analysis of the deposited data

Results flagged for a closer look

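The male minus female difference of *Nppb* differed between adult and embryonic pairs. It was larger in the 2 adult pairs than in the 7 embryonic pairs by 1.58 (log2, adjusted p = 0.00237 for that difference), and the male array was the higher one in both adult pairs. It stayed between 1.39 and 1.77 when each pair was left out in turn (adjusted p from 0.000803 to 0.00920), an alternative chosen after seeing the data. It was 1.53 after quantile renormalization and 1.49 after median centring. The adult side rests on 4 arrays, 1 of each sex at each age, so sex and single sample cannot be told apart. The p used a spread pooled over all pairs, 7 of them embryonic, so it does not measure the spread among adult arrays alone. The old male array was also the highest old array in *Ankrd1* (12.97), *Myh7* (13.40) and *Acta1* (10.98).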

How the results depend on the processing

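Counts of called genes among the 7 were recomputed under other settings. Of 330 such counts 285 stayed within 1.5 times the reported count and 45 did not, and of 1653 single-gene results 1574 kept direction and side of the threshold, 48 gained the call, 30 lost it and 1 reversed. With 4 called from E10.5 to E19.5, 2 (*Npr2* and *Npr3*) were called after low values were left out. That setting took *Nppc* and *Npr1*, with no stage mean above 5, out of the test, so their calls were not retested. With the bacterial control level as a covariate 2 were called (*Nppa* and *Corin*, neither of them among the 4). From E10.5 to E14.5 (2 called) the counts were 4 after centring, 7 with array weights, 1 with the control covariate and 5 with only the stages compared. From E14.5 to E19.5 (1 called) they were 2 without low values, 3 with array weights and 2 with the control covariate. From E19.5 to young adult (0 called) the control covariate gave 4 and all probe sets of the members 1. From young to old adult (1 called) 0 were called after quantile renormalization, with array weights, with the control covariate and with only the stages compared. Under the study's limits the control covariate gave 1, *Nppa*. Male against female gave 1 in adult pairs only, against 0. The share of all probe sets called under each setting is not given here, so these counts are not read as particular to the members. *Nppa* reversed from E10.5 to E19.5 with the control covariate, at +1.41 (adjusted p = 0.0272) against -0.61. That covariate moved with stage, and the cause was not tested.

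Leaving out each array in turn gave 4 to 4 calls from E10.5 to E19.5, 1 to 4 from E10.5 to E14.5, 0 to 2 from E14.5 to E19.5, 0 to 1 from E19.5 to young adult and 0 to 2 from young to old adult. It gave 0 under the study's limits, 6 to 7 over the 12 stages and 0 between sexes. With the sex label as a replicate block, 2 genes were called from E14.5 to E19.5, the second being *Npr3* (-1.15, adjusted p = 0.0324), and the block changed no other call in the comparisons it could be fitted to. Arrays sharing a label did not deviate together between E14.5 and E19.5, E19.5 and young adult, or young and old adult (correlations from -0.606 to 0.208). Other pairs of stages were not compared in this way. Over all probe sets the mixed-sex E17.5 array was nearest to the mixed-sex E18.5 array, and that array to the mixed-sex E19.5 array. Whether the labels pair the arrays at those stages was not tested. Leaving out the mixed-sex E13.5 and E14.5 arrays together was chosen after seeing the data. With 3 arrays a stage, probe sets near the bottom of the range, such as *Nppc* and *Npr1*, are limited by signal over background.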
